A study of Mus musculus with 4 samples.

Results

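The leukaemia side of a 4-library single-cell RNA study of mouse bone marrow is described here: 1 library of MLL-AF9 leukaemia cells labelled WT and 1 labelled KO, compared gene by gene. Members are the genes whose level averaged at least 5 CPM over these libraries, beyond immediate early and stress genes. CPM is a gene's scaled share of the unique molecular identifiers (UMIs) of all kept cells of a library. They number 9829 of the 56941 genes in the files, and 9901 with the 72 measured immediate early and stress genes. A cell was kept if it had at least 500 genes, at least 1000 UMIs and no more than 10% mitochondrial UMIs, which left 24955 leukaemia cells of 51611 cells in all 4 libraries. Both leukaemia libraries are primary MLL-AF9 leukaemia cells collected at the same endpoint of a primary transplantation, from bone marrow that was wild-type for Rbm5 in one case and knocked out for it in the other. The companion libraries hold normal c-Kit+ marrow cells, WT and KO. They carried more RNA of maturing neutrophil markers than either leukaemia library, as given below, so a c-Kit+ level is not that of progenitors alone. Neither the Rbm5 allele, nor any Cre, nor the age of the mice, nor the number of mice pooled is given in the sources used here. With 1 library per group no difference below has a replicate check, and no test was made. The effect of the genotype, other differences between the leukaemias and differences in handling of the libraries cannot be told apart. All intervals are at 95% and reflect the error of counting alone. Since levels are sums over cells, fewer cells of a type and less RNA per cell cannot be told apart in them.

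MLL-AF9 is a fusion of the histone methyltransferase MLL with AF9, a partner that brings in the transcription elongation machinery, and it holds haematopoietic progenitors in a self-renewing myeloid state through HOXA genes, MEIS1 and PBX3. Rbm5 codes for an RNA-binding protein of the early spliceosome. In the marrow such leukaemias hold immature blasts beside cells that go on to granulocyte or monocyte features, so a library is a mixture of stages. The comparison addressed whether loss of Rbm5 alters the expression programme of the leukaemia, and the c-Kit+ pair showed how far a WT and a KO library of normal cells differed.

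The WT library held 13177 kept cells and 93004538 UMIs, and the KO library 11778 cells and 101255178 UMIs, with medians of 5946 and 7420.5 UMIs per cell. Between 44 and 69 cell barcodes were shared by any 2 of the 4 libraries, 54 of them by the leukaemia pair. Rbm5 itself (ENSMUSG00000032580, chromosome 9, 107740371 to 107770996, minus strand of GRCm38) was at 160.5 CPM in the WT leukaemia and 116 CPM in the KO leukaemia, and at 75.5 and 89.6 CPM in the WT and KO c-Kit+ libraries. In leukaemia its log2 ratio was -0.09 from that of the median gene. The altered part of Rbm5 is not given in the sources used here, and counts from outside such a part would check nothing, so the labels are not checked by these counts; KO and WT below mean the libraries so labelled. Xist was at 1449.6 and 729 CPM in WT and KO leukaemia and at 0.0640 and 0.0495 CPM in the c-Kit+ libraries, while the Y-linked Ddx3y was at 0.151 and 0.207 CPM and at 71.9 and 72.02 CPM. Each KO to WT comparison is therefore between libraries with the same pattern of sex-linked genes, whereas the leukaemia and c-Kit+ pairs differ in it.

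The leukaemia libraries differed over a large part of the transcriptome. Each gene's log2 ratio of KO over WT was taken with 1 CPM added to both levels and read against the median gene, which stood at -0.38; this relative log2 ratio is what is called the difference below, while ratios in plain words are ratios of CPM. Over all 9901 measured genes 9.12% were 2-fold or more above the median gene and 3.65% were 2-fold or more below it. Beyond the immediate early and stress genes these were 839 and 361 genes, of which 206 and 29 were past 4-fold and 62 and 8 past 8-fold. Without subtracting the median gene the split was 484 higher and 1244 lower, so the direction of a gene less than 0.38 above the median gene depends on the scaling. In the c-Kit+ pair 0.0628% of 9555 genes were 2-fold or more above their median gene and 0.0314% below it, which is 6 and 3 genes. The SD of the differences was 0.74 in leukaemia beyond the immediate early genes and 0.15 in the c-Kit+ pair. The 839 higher genes made up 9.17% of UMIs in WT leukaemia and 21.4% in KO, and the 361 lower genes 1.86% and 0.538%. Of the 72 measured immediate early and stress genes, 64 were 2-fold or more above the median gene in leukaemia and 0 below it. Their median difference was 3.26, and in the c-Kit+ pair 0 of 69 were past 2-fold. How far the other differences go with these genes was not tested.

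**Figure D1:**
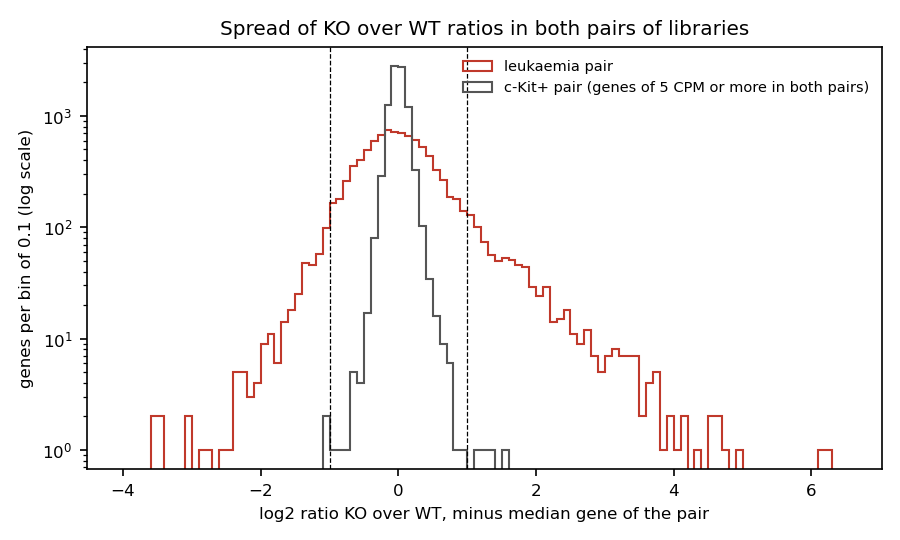
Distribution of the log2 ratio of KO over WT, minus the median gene, for genes beyond the immediate early and stress list; x axis in log2 units, y axis genes per bin of 0.1 on a log scale, red for the leukaemia pair (SD 0.74), grey for the c-Kit+ pair (SD over its own 9555 genes 0.15), dashed lines at 2-fold. The leukaemia curve is wider on both sides and has its longer tail on the higher side.

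Where the leukaemia libraries stood among the 4 differed between the sets. Of the 839 higher genes, KO leukaemia was the highest of the 4 libraries for 733 (87.4%), against 19.9% of all 9829 genes, and WT leukaemia was the lowest for 467 (55.7%), against 9.95%. Of the 361 lower genes, WT leukaemia was the highest for 315 (87.3%), against 53.8% of all genes, and KO leukaemia was the lowest for 241 (66.8%), against 43.1%. Part of this follows from choosing the genes by the leukaemia ratio. The order of the libraries also depends on their scaling, and how far it does was not tested. Many of the higher genes were below the c-Kit+ level in WT leukaemia and above it in KO, and most of the lower genes were above the c-Kit+ level in WT leukaemia. The lower limit of 5 CPM fell between Gm21811 (mean 4.998 CPM) and Slc25a14 (5.001 CPM). Beyond the immediate early genes 12 members were under 1 CPM in WT and 7 under 1 CPM in KO; these passed the limit through 1 library and had to differ.

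**Figure D2:**
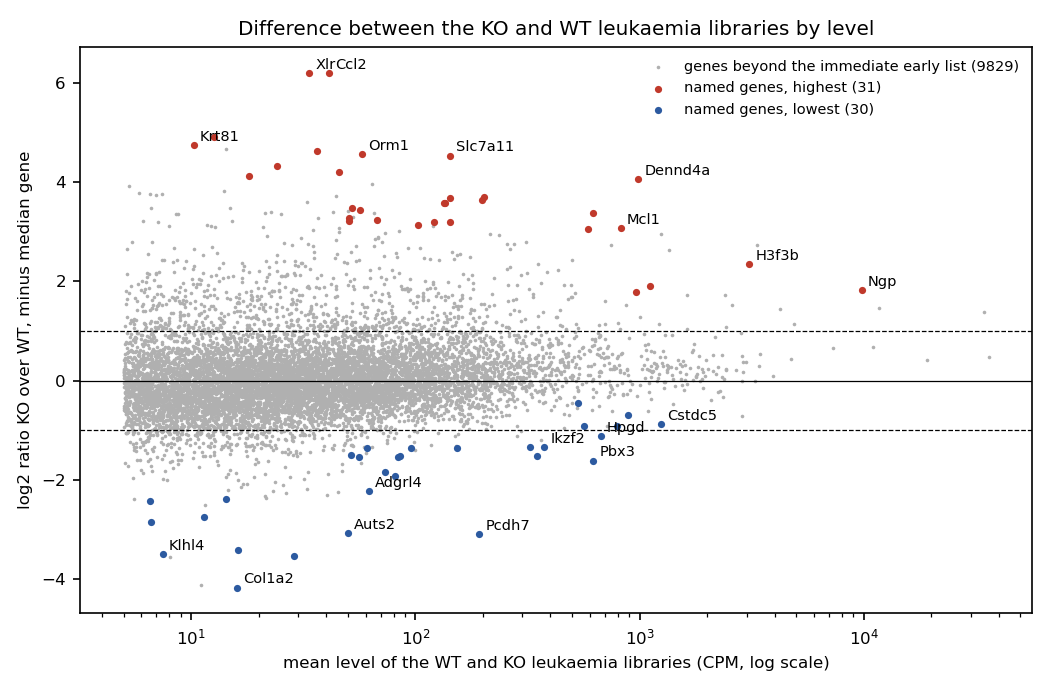
Difference of each gene between KO and WT leukaemia (y axis, log2 ratio minus the median gene) against its mean level in both libraries (x axis, CPM, log scale); grey points are the 9829 genes, red and blue points the 31 highest and 30 lowest leading genes of 3 level bands, dashed lines mark 2-fold. Xlr and Ccl2 stand highest at low levels, Dennd4a and Mcl1 at high levels, and Pcdh7, Auts2 and Col1a2 lie among the lowest.

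Among genes with a mean of 50 to 500 CPM the leading higher genes were a cystine transporter, acute-phase and innate immune genes of granulocytes and regulators of endocytosis, transcription and RNA. Slc7a11, the transporter subunit that exchanges cystine for glutamate (ENSMUSG00000027737, chromosome 3, 49892526 to 50443614, minus strand), was at 14.3 CPM in the WT leukaemia and 271 CPM in the KO leukaemia, and at 31.02 and 25.7 CPM in the WT and KO c-Kit+ libraries. The ratio in leukaemia was 18.96 (17.9 to 20.1) and the difference 4.54. WT leukaemia had the lowest and KO leukaemia the highest level of the 4 libraries, while the c-Kit+ libraries lay close together. Orm1, an acute-phase glycoprotein of the plasma that granulocytes also make (chromosome 4, 63344560 to 63348163, plus strand), was at 5.14 CPM in the WT leukaemia and 111 CPM in the KO leukaemia, and at 89.8 and 92.2 CPM in the WT and KO c-Kit+ libraries. KO leukaemia thus stood near the c-Kit+ level of Orm1 and WT leukaemia 21.5-fold (19.6 to 23.6) below KO.

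Receptors and sensors of inflammation followed. Il1r2, the decoy receptor for interleukin-1 (chromosome 1, 40074079 to 40125231, plus strand), was at 36.2 and 369 CPM in WT and KO leukaemia and 120.1 and 109 CPM in the c-Kit+ libraries, a ratio of 10.2 (9.83 to 10.6). Trem1, a receptor that amplifies neutrophil and monocyte activation (chromosome 17, 48232768 to 48246924, plus strand), was at 25.5 and 242 CPM in WT and KO leukaemia and 39.02 and 31.6 CPM in the c-Kit+ libraries, a ratio of 9.50 (9.11 to 9.91). In each case KO leukaemia was the highest library and WT leukaemia the lowest. Nlrp3, the sensor of the inflammasome, was at 11.6 and 89.1 CPM in WT and KO leukaemia and at 39.5 and 26.2 CPM in the c-Kit+ libraries, and Clec4e, the lectin receptor Mincle, at 29.3 and 213 CPM and 73.9 and 55.5 CPM. Slfn4, a schlafen gene induced by interferon in myeloid cells, was at 25.8 and 179.7 CPM in WT and KO leukaemia, a ratio of 6.95 (6.66 to 7.26).

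The other leading genes of this band act inside the cell. Rabgef1 codes for an exchange factor of the endosomal GTPase RAB5 and was at 25.5 and 259.6 CPM in WT and KO leukaemia and 101 and 92.8 CPM in the c-Kit+ libraries; its ratio in leukaemia was 10.2 (9.75 to 10.6). Dhx40, an RNA helicase, was at 36.8 and 359.7 CPM in WT and KO leukaemia and 99.7 and 79.1 CPM in the c-Kit+ libraries, with a ratio of 9.77 (9.44 to 10.1). Ets2, a transcription factor acting downstream of RAS signalling, was at 25.8 and 246 CPM in WT and KO leukaemia and 36.9 and 36.7 CPM in the c-Kit+ libraries, with a ratio of 9.51 (9.12 to 9.93). For these 3 genes the c-Kit+ libraries lay between the leukaemia libraries. Usp36, a nucleolar deubiquitinase, differed by 9.29-fold (8.69 to 9.95), Homer1, a scaffold of synaptic signalling, by 7.58-fold (7.18 to 8.005) and Ctsl, the lysosomal protease cathepsin L, by 7.22-fold (6.96 to 7.49). Cdkn1a, the cell cycle inhibitor p21, was at 11.3 and 101 CPM. In all 15 genes of this group the difference was above the median gene in 14 of 14 groups of like cells, which are described below.

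**Figure D3:**
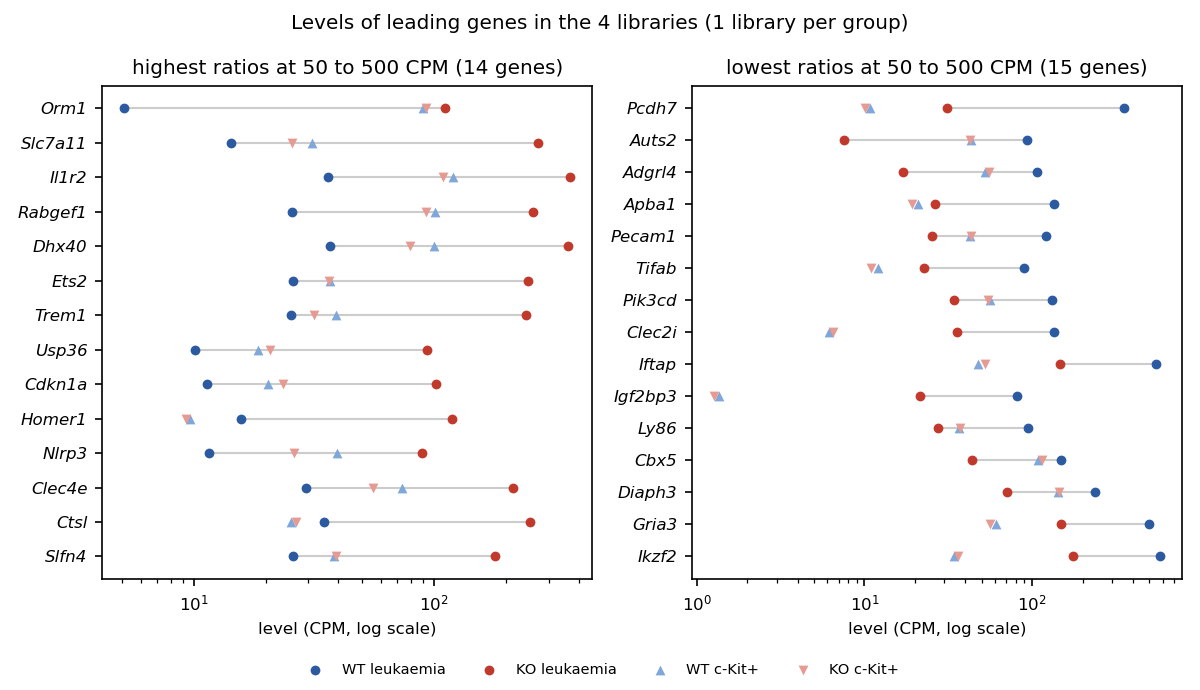
Levels in CPM (x axis, log scale) of 14 of the 15 highest and of the 15 lowest genes at a mean of 50 to 500 CPM, 1 point per library: circles for leukaemia, triangles for c-Kit+ cells, blue for WT and red for KO, grey lines joining the leukaemia libraries. The c-Kit+ points of a gene lie close together, while the leukaemia points are between 3.30-fold (Ikzf2) and 21.5-fold (Orm1) apart.

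Promoter sequence was not used to choose the genes. RefSeq promoters (GRCm38.p6, 250 bases before to 50 after the start) were matched by symbol, and 6072 members had exactly 1, among them 497 higher and 197 lower genes and, of the leading genes, 18 of 31 highest and 17 of 30 lowest. Motifs were searched as letters on both strands. The C/EBP-type motif TTGCNNAA, bound by the factors that direct granulocyte genes, was in 10.5% of higher and 7.11% of lower promoters, against 8.20% of all. The AP-1 motif TGANTCA was in 7.04% and 6.09%, against 4.35% of all, and the ETS motif CCGGAAGT in 6.04% and 7.11%, against 10.2%. CCAAT, bound by NF-Y, was in 47.5% and 44.2%, against 40.6%, and CACGTG, the E-box bound by MYC, in 10.1% and 8.63%, against 10.7%. TATAAA in the transcribed direction at -45 to -16 was in 3.82% of higher promoters and in 0 of 197 lower ones, against 1.20% of all. The CRE motif TGACGTCA was in 4.63% and 3.55%, against 3.41%, and the 10-letter NF-kappaB motif in 2.21% and 2.03%, against 1.56%. The remaining motifs were E2F (TTTCGCGC, 0.402% and 0.508%, against 0.823%), its variant TTTGGCGC (0.805% and 0.508%, against 1.20%), PU.1 (GAGGAAGT, 3.22% and 3.05%, against 3.69%), HOX-PBX (TGATNNAT, 4.02% and 5.58%, against 3.33%) and RUNX (TGTGGTT, 3.42% and 4.06%, against 3.46%). ETS and PU.1 share the letters GGAAGT and the other motifs do not contain one another. A match is a description of letters and not a bound site.

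To show what such matches look like in the leading genes, 60 bases from before the start of 5 higher genes with a C/EBP-type match, 1 higher gene with an AP-1 match and 1 lower gene with an E-box are given 5′ to 3′ on the gene's strand, the match in capitals. These genes were picked as examples, and the share of leading genes with each match is not given here. The stretches lie at chr3:50443740-50443799 (minus, Slc7a11), chr13:64370601-64370660 (minus, Ctsl), chr6:123289904-123289963 (minus, Clec4e), chr9:110419644-110419703 (plus, Ngp), chr19:20390781-20390840 (minus, Anxa1), chr11:83175126-83175185 (plus, Slfn4) and chr6:49214955-49215014 (minus, Igf2bp3).
Slc7a11: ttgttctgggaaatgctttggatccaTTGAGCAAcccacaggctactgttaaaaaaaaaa
Ctsl: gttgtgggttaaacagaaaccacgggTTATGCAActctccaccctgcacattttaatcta
Clec4e: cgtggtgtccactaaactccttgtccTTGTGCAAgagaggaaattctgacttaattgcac
Ngp: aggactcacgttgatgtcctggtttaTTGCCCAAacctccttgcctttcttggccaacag
Anxa1: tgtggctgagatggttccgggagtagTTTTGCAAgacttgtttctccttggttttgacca
Slfn4: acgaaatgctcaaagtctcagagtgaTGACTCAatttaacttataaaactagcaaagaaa
Igf2bp3: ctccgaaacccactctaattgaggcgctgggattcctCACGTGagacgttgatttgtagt

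Genes at 500 CPM or more that led on the higher side were of 2 kinds. Dennd4a, an exchange factor for RAB GTPases (chromosome 9, 64811340 to 64919667, plus strand), was at 142 CPM in the WT leukaemia and 1829.8 CPM in the KO leukaemia, and at 488 and 432 CPM in the WT and KO c-Kit+ libraries, a ratio of 12.8 (12.6 to 13.1). Mcl1, which protects myeloid cells from apoptosis, was at 221 and 1429.9 CPM in WT and KO leukaemia and 211 and 199 CPM in the c-Kit+ libraries, a ratio of 6.48 (6.38 to 6.57). H3f3b, one of the genes of the replication-independent histone H3.3, was at 1258 and 4929 CPM in WT and KO leukaemia, and G0s2, an inhibitor of lipolysis, at 138 and 1107 CPM. For these 4 genes KO leukaemia was above the other 3 libraries. Granulocyte genes made up the other kind: Ngp, a granule protein of maturing neutrophils, was at 5255 and 14307 CPM in WT and KO leukaemia and 14804 and 13851 CPM in the c-Kit+ libraries, Wfdc21 at 572 and 1644 CPM in WT and KO leukaemia and 2691 and 2430.4 CPM in the c-Kit+ libraries and Anxa1, an anti-inflammatory annexin, at 531 and 1406 CPM in WT and KO leukaemia and 1518 and 1517 CPM in the c-Kit+ libraries. Here WT leukaemia was the low library, and KO leukaemia lay near or below the c-Kit+ level.

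At 5 to 50 CPM the largest ratios rested on genes close to absent in WT leukaemia. Ccl2, a chemokine that attracts monocytes, was at 0.473 and 82.2 CPM in WT and KO leukaemia and 3.999 and 3.74 CPM in the c-Kit+ libraries, a ratio of 174 (129 to 239). Xlr, an X-linked gene of a multicopy family, gave 20 and 6787 UMIs in WT and KO leukaemia (0.215 and 67.03 CPM), a ratio of 312 (202 to 511). Krt81, a hair keratin, gave 4 and 2070 UMIs, and its near copy Krt83 was at 1.68 and 34.7 CPM; for both families the counting of reads shared by copies is not given in the sources used here. Hao1, a glycolate oxidase of peroxisomes, was at 0.129 and 25.04 CPM, Hcar2, the niacin receptor, at 2.76 and 69.9 CPM and Ccrl2, an atypical chemerin receptor, at 5.21 and 86.5 CPM. Acod1, which makes itaconate in activated myeloid cells, was at 2.06 CPM in the WT leukaemia and 46.03 CPM in the KO leukaemia, and at 30.6 and 14.7 CPM in the WT and KO c-Kit+ libraries; here the c-Kit+ pair differed in the opposite direction, and the difference between the pairs was not tested.

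On the lower side, surface and signalling genes that WT leukaemia carried above the c-Kit+ level led the band of 50 to 500 CPM. Pcdh7, a protocadherin (chromosome 5, 57717967 to 58133230, plus strand), was at 354 CPM in the WT leukaemia and 31.1 CPM in the KO leukaemia, and at 10.8 and 10.04 CPM in the WT and KO c-Kit+ libraries, so that KO leukaemia was 11.4-fold (10.98 to 11.8) lower. Apba1, an adaptor of vesicle traffic, was at 135 and 26.5 CPM in WT and KO leukaemia and 20.9 and 19.3 CPM in the c-Kit+ libraries and 5.11-fold (4.90 to 5.33) lower. Auts2, a nuclear protein that partners with a polycomb complex (chromosome 5, 131437333 to 132543344, minus strand), was at 92.7 and 7.54 CPM in WT and KO leukaemia and 43.1 and 42.6 CPM in the c-Kit+ libraries and 12.3-fold (11.4 to 13.3) lower. Pcdh7 and Apba1 remained above the c-Kit+ level in KO leukaemia, whereas Auts2 was below it.

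Adgrl4, an adhesion G protein-coupled receptor of endothelium, was at 107 and 16.9 CPM in WT and KO leukaemia and 52.03 and 55.5 CPM in the c-Kit+ libraries and 6.35-fold (6.04 to 6.69) lower. Pecam1, the adhesion molecule CD31, was at 121 and 25.1 CPM in WT and KO leukaemia and 42.5 and 43.3 CPM in the c-Kit+ libraries and 4.81-fold (4.61 to 5.02) lower. Pik3cd, the leukocyte PI3K catalytic subunit p110 delta, was at 132 and 34.4 CPM in WT and KO leukaemia and 56.3 and 54.3 CPM in the c-Kit+ libraries, 3.85-fold (3.70 to 3.996) lower, and its difference ran from -1.85 to -1.24 in the 14 groups of like cells. KO leukaemia was the lowest of the 4 libraries for these 3 genes. Iftap was at 550.4 and 147 CPM in WT and KO leukaemia and 47.6 and 52.1 CPM in the c-Kit+ libraries, Clec2i, a ligand of NK cell receptors, at 136 and 35.6 CPM in WT and KO leukaemia and 6.13 and 6.48 CPM in the c-Kit+ libraries and Gria3, a glutamate receptor subunit, at 496 and 149.6 CPM in WT and KO leukaemia and 60.7 and 55.8 CPM in the c-Kit+ libraries. These 3 genes stood highest in WT leukaemia and remained above the c-Kit+ level in KO. Tifab, an inhibitor of TRAF6 signalling, was 3.93-fold (3.75 to 4.11) lower, Ly86, a partner of an LPS-related receptor, 3.43-fold (3.29 to 3.58), Cbx5, the heterochromatin protein HP1 alpha, 3.39-fold (3.28 to 3.51) and Diaph3, an actin nucleator, 3.35-fold (3.26 to 3.44).

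Regulators tied to MLL-fusion leukaemia were among the lower genes. Ikzf2, the lymphoid and leukaemia stem cell transcription factor Helios (chromosome 1, 69531214 to 69687245, minus strand), was at 577 CPM in the WT leukaemia and 175 CPM in the KO leukaemia, and at 34.4 and 35.9 CPM in the WT and KO c-Kit+ libraries and 3.30-fold (3.24 to 3.36) lower. Igf2bp3, an oncofetal RNA-binding protein that binds leukaemia transcripts (chromosome 6, 49085223 to 49214957, minus strand), was at 81.7 CPM in the WT leukaemia and 21.5 CPM in the KO leukaemia, and at 1.35 and 1.27 CPM in the WT and KO c-Kit+ libraries, and its paralog Igf2bp2 at 25.7 and 2.93 CPM in WT and KO leukaemia and 0.842 and 1.25 CPM in the c-Kit+ libraries. Both IGF2BP genes were close to absent in the c-Kit+ libraries and lower in KO than in WT leukaemia, Igf2bp3 by 3.80-fold (3.62 to 3.98) and Igf2bp2 by 8.76-fold (7.76 to 9.92).

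At 500 CPM or more 7 genes met the naming rule on the lower side, of which only Pbx3 and Hpgd were past 2-fold over all cells; over like cells Pbx3 (-1.65) and Rsrp1 (-1.05) were and Hpgd (-0.76) was not. Hpgd, the enzyme that inactivates prostaglandins (chromosome 8, 56294585 to 56321043, plus strand), was at 992 CPM in the WT leukaemia and 351 CPM in the KO leukaemia, and at 5.32 and 4.10 CPM in the WT and KO c-Kit+ libraries and 2.83-fold (2.79 to 2.86) lower; WT leukaemia was far above the c-Kit+ level and KO leukaemia remained well above it. The differences were -1.61 for Pbx3 and -1.11 for Hpgd. Rsrp1 differed by -0.92, the stefin-like protease inhibitors Cstdc4 and Cstdc5 by -0.91 and -0.87, the monocyte antigen Ly6c2 by -0.68 and the transcription factor partner Lmo2 by -0.44. Cstdc4, Cstdc5 and Ly6c2 have close copies, so their levels are uncertain. At 5 to 50 CPM the lowest genes included Klhl4, with 1379 and 8 UMIs in WT and KO, the kinase gene Cdc42bpa, with 2890 and 132 UMIs, the diacylglycerol kinase gene Dgki (54.6 and 2.70 CPM), the calcium channel gene Cacna1b (21.2 and 1.52 CPM) and the coagulation inhibitor Tfpi (12.2 and 0.889 CPM). Col1a2 (31.7 and 0.395 CPM) and Sparc (12.7 and 0.474 CPM), matrix genes of stroma, also stood here; they were 2 of the first 3 leading genes of a small unnamed group of 41 WT and 35 KO cells, and the part of these cells in the result was not tested.

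Shares of cells with a UMI were compared after each cell was thinned to 2000 UMIs, which kept 11861 WT and 11140 KO cells, with a cluster that carried T or NK cell markers (126 and 124 thinned cells) as a measure of free RNA for myeloid genes. Median depths before thinning were 5975.5 and 7438 UMIs outside that cluster and 4409 and 5898 UMIs inside it. Trem1 was detected in 6.47% (6.03 to 6.92%) of cells in the WT library and 35.6% (34.7 to 36.5%) in the KO library (14.6% and 62.9% unthinned), against 0.794% and 4.84% in that cluster. Il1r2 was detected in 8.43% (7.94 to 8.95%) and 44.6% (43.7 to 45.6%) (17.9% and 69.3% unthinned), against 1.59% and 9.68%. For both receptors the share outside the cluster was above that inside it in each library and higher in KO.

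Hpgd was detected in 61.2% (60.4 to 62.1%) of cells in the WT library and 23.9% (23.1 to 24.7%) in the KO library (72.3% and 38.6% unthinned), against 22.2% and 5.65% inside the cluster. Igf2bp3 was detected in 11.98% (11.4 to 12.6%) and 3.20% (2.88 to 3.54%) (28.9% and 10.7% unthinned), against 2.38% and 3.23%. With only 124 KO cells in the cluster, the Igf2bp3 share of KO cells was thus not told apart from free RNA. The share of WT cells was above that inside the cluster. Pcdh7 was detected in 22.2% (21.4 to 22.9%) of WT cells and 2.05% (1.79 to 2.33%) of KO cells (26.6% and 2.95% unthinned), against 6.35% and 0 of 124 cells in that cluster, the latter allowing a share of up to 2.42%. The KO share of Pcdh7 over all these cells lay under that limit, so this comparison alone does not tell it from free RNA. Within clusters its difference ran from -7.07, in the T or NK cluster, to 2.42, in a cluster that expresses stefin genes. Shares by cluster were not compared.

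The cell stages of the libraries differed, and this was measured beside the genes. WT leukaemia was clustered alone into 22 clusters and each KO cell was placed by its 15 nearest WT cells. Clusters called maturing neutrophil-like by their markers held 24.9% of WT and 52.4% of KO cells, monocyte-like clusters 22.6% and 11.4%, neutrophil progenitor-like clusters 24.9% and 18.3% and unnamed clusters 24.5% and 14.4%. The 10 maturing neutrophil markers summed to 74643 CPM in WT and 121349 CPM in KO, 6 of 10 past 2-fold and none at 0. In the WT and KO c-Kit+ libraries these markers summed to 209876 and 196557 CPM. The 10 erythroid markers summed to 2252 and 11454 CPM, with 9 of 9 measured past 2-fold and none at 0, and haemoglobin genes held 0.216% and 1.12% of UMIs. The 7 monocyte markers summed to 1930.5 and 1048 CPM, with 0 of 7 measured past 2-fold in either direction. Ly6c2, whose level is uncertain as given above, made up 1206 and 576 CPM of these sums. The 8 conventional dendritic cell markers summed to 491 and 172 CPM. Of the dendritic cell markers 4 reached the limit of 5 CPM, and 3 of these were lower by 2-fold. The 7 immature blast markers summed to 1113 and 639.7 CPM, 2 of them lower by 2-fold, against 298 and 312 CPM in the c-Kit+ libraries. Kit, a member of this set, was at 61.3 and 28.4 CPM in WT and KO leukaemia and 45.8 and 43.9 CPM in the c-Kit+ libraries. No marker of these sets was at 0, and the part of the stages in the gene differences was not tested.

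Differences within like cells can be read from the 14 clusters in which each library had 100 cells or more, which held 94.1% of WT and 96.4% of KO cells, weighted equally in both. Over them 601 of the 839 higher genes and 217 of the 361 lower genes were again past 2-fold, and 833 and 358 had the same sign. With all cells of the maturing neutrophil-like and erythroid-like clusters left out, a setting chosen after seeing the data, 621 genes were higher and 291 lower. Slc7a11 had a difference of 4.54 over all cells and 3.53 over like cells, Rabgef1 3.68 and 3.63, Dennd4a 4.06 and 3.84 and Pik3cd -1.53 and -1.54. Granulocyte genes had smaller values over like cells: Ngp 1.83 and 1.15, Wfdc21 1.90 and 0.71 and Anxa1 1.79 and 0.89. Several leading inflammatory genes were also smaller there but remained past 2-fold: Orm1 4.57 and 3.46, Trem1 3.58 and 2.74, Il1r2 3.70 and 2.84, Clec4e 3.20 and 2.33 and Slfn4 3.13 and 2.11. This did not hold for all such genes. Nlrp3 was nearly unchanged, at 3.22 and 3.17, and the difference of Ccl2 was larger over like cells than over all cells. On the lower side Auts2 went from -3.07 to -1.91, Apba1 from -1.93 to -1.26, Pecam1 from -1.84 to -1.18 and Col1a2 from -4.17 to -2.0. Auts2, Apba1 and Pecam1 were among the 10 leading genes of a monocyte-like cluster that held 10.1% of WT and 2.30% of KO cells, and Auts2 and Apba1 also of another with 4.01% and 1.63%.

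Of 114 leading genes past 2-fold over all cells, 114 had the same sign over like cells. For those taken from the level bands the naming rule required this, with a size of at least 0.5, so their sign checks nothing. Of the 114 genes, 20 were no longer past 2-fold over like cells and 25 differed by more than 1.5 times between both readings. Beside Wfdc21 and Anxa1 the calls lost included those of Cd9 (0.74 over like cells), Rasa2 (0.84) and Dlst (0.92) on the higher side. On the lower side they included those of Hpgd (-1.11 over all cells and -0.76 over like cells), Gria3 (-1.34 and -0.67), Ly86 (-1.36 and -0.79) and Sparc (-2.84 and -0.70). Nup210 (-0.74 over like cells), Nlrp1a (-0.97), Ftx (-0.94), Jpx (-0.78), Evl (-0.73), Bcl2 (-0.64) and Bach2 (-0.22), described with their lists below, also lost theirs. Pcdh7 ran from -7.07 to 2.42 across the clusters, above the median gene in 3 of 14, and Pbx3 from -2.91 to 0.49, also above it in 3.

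**Figure D4:**
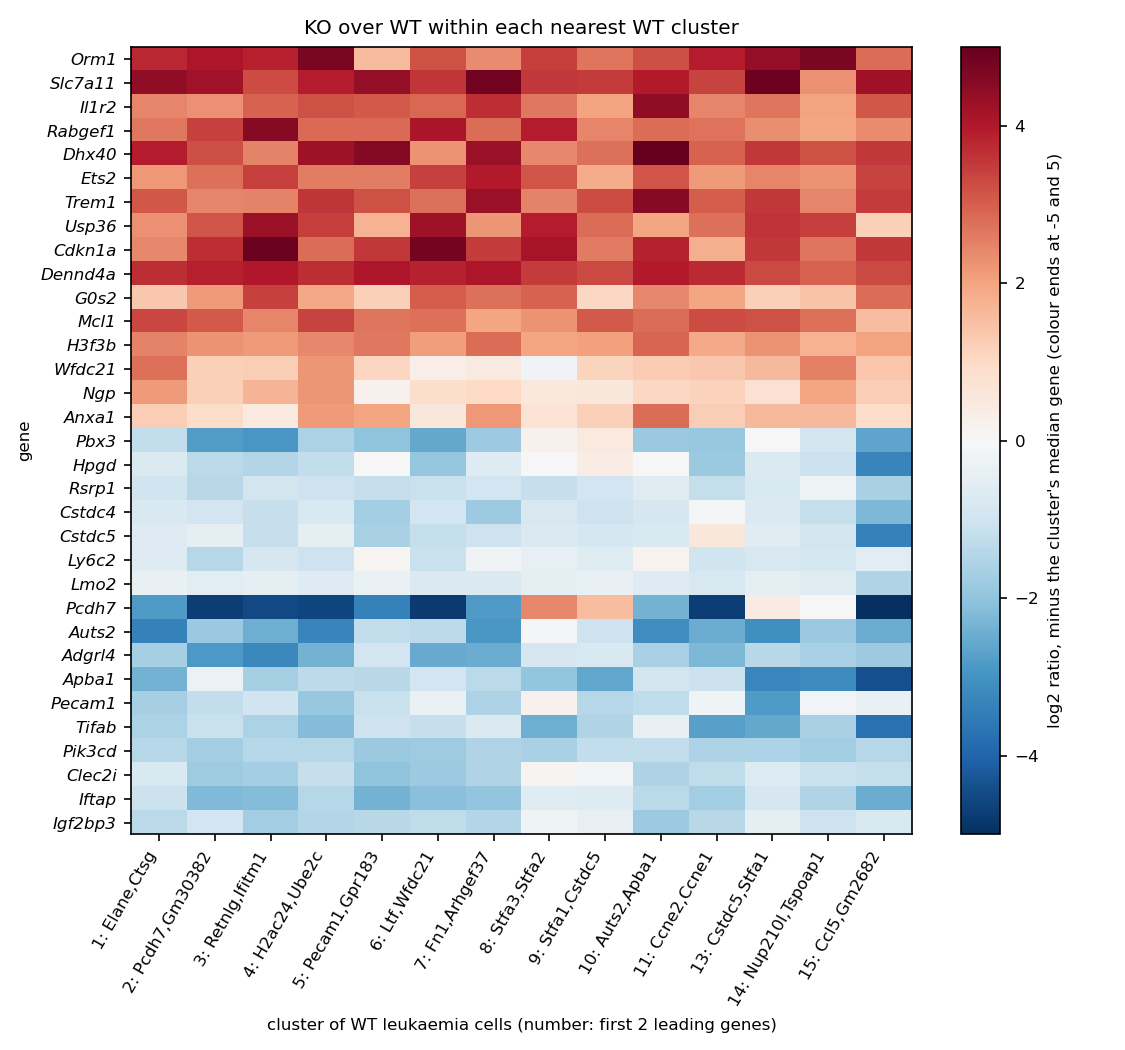
Difference between KO and WT leukaemia within each of the 14 clusters of like cells (columns, named by number and 2 leading genes) for leading genes at 50 CPM or more that are reported here (rows); colour is the log2 ratio minus the cluster's median gene, red for higher and blue for lower in KO, and ends at -5 and 5. Dennd4a and Pik3cd keep similar values across the columns, while Pcdh7 and Pbx3 are above the median gene in 3 clusters that express stefin genes.

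Functional lists were then read as counts and medians beside the background of 9.12% higher and 3.65% lower among all measured genes. Medians are relative to the median gene, and of the 17 of 25 list medians above 0 on that scale 12 are below 0 in plain CPM, as given with each. Genes of DNA repair stood on the lower side: of 52 measured, 0 were 2-fold higher and 10 lower, 45 were below the median gene, and the median difference was -0.55 (-0.37 over like cells, below the median gene in 14 of 14 clusters). Atm, the kinase that signals double-strand breaks, was at 32.3 and 7.26 CPM in WT and KO leukaemia and 18.9 and 20.1 CPM in the c-Kit+ libraries and 4.45-fold (4.10 to 4.83) lower. Palb2, which links BRCA1 and BRCA2, was at 14.5 and 2.95 CPM and Fanca, of the Fanconi anaemia core complex, at 46.5 and 12.3 CPM in WT and KO leukaemia. Rbbp8, which starts end resection, had the highest difference of the list at 0.87. In the c-Kit+ pair 0 of 50 measured repair genes were past 2-fold.

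Other nuclear lists showed smaller displacements. Nuclear pore genes had 1 of 33 higher, Nup98 (85.3 and 164 CPM), and 1 lower, Nup210 (90.5 and 30.8 CPM), with a median of -0.29 (-0.12 over like cells). Genes of cohesin and condensin had none of 24 past 2-fold, with Pds5b lowest at -0.86, and their median of -0.17 over all cells was 0.01 over like cells, with the opposite sign. Polycomb and DNA methylation genes had 1 of 36 higher and 0 lower, with the methyltransferase Dnmt3a next to the limit at -0.99 (42.95 and 15.97 CPM). Haematopoietic transcription factors were past 2-fold in both directions, 8 of 64 higher and 6 lower around a median of -0.02. Satb1, a chromatin organiser, was at 12.8 and 36.7 CPM in WT and KO leukaemia, while Bach2, a repressor of myeloid genes in lymphoid cells, was at 32.1 and 9.55 CPM. Bach2 was above the median gene in 8 of 14 clusters, so its lower level over all cells did not hold in most groups of like cells.

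Lists of RNA metabolism differed among themselves. Genes of mRNA decay and the junction complex had 1 of 40 higher, the deadenylase subunit gene Cnot7 (54.9 and 95.4 CPM), 0 lower and a median of 0.05, which is -0.34 in plain CPM. Writers, readers and erasers of m6A had none of 19 past 2-fold, from Fto at -0.56 to Ythdf3 at 0.80, and a median of 0.10 that is -0.28 in plain CPM. Long non-coding and small nucleolar RNA host genes had 7 of 27 higher and 2 lower, with a median of 0.58 (0.49 over like cells). Neat1, the scaffold of paraspeckles, was at 143 and 565 CPM in WT and KO leukaemia and 184 and 184 CPM in the c-Kit+ libraries, Snhg5 at 13.6 and 47.8 CPM and Snhg12 at 22.1 and 57.5 CPM. The 2 lower members, Ftx (23.3 and 7.81 CPM) and Jpx (13.6 and 4.37 CPM), are neighbours of Xist in the X-inactivation centre.

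Amino acid and stress response genes of the ATF4 pathway, which uncharged tRNA or unfolded proteins switch on, had 9 of 31 members higher and 0 lower. The list's median was 0.33 (0.34 over like cells, above the median gene in 14 of 14 clusters), but -0.0514 in plain CPM, so the direction of the list as a whole depends on the scaling. Atf4 itself was at 81.7 CPM in the WT leukaemia and 429 CPM in the KO leukaemia, and at 147 and 146 CPM in the WT and KO c-Kit+ libraries, a ratio of 5.25 (5.12 to 5.38). Slc3a2, the heavy chain that carries the Slc7a11 transporter, was at 48.9 and 206 CPM in WT and KO leukaemia and 77.3 and 78.1 CPM in the c-Kit+ libraries, a ratio of 4.20 (4.07 to 4.34). For Atf4, Slc3a2 and Slc7a11 KO leukaemia was the highest library and WT leukaemia the lowest. The lowest members of the list included Lars at -0.50 and Xpot at -0.53, neither past 2-fold. Genes of chaperones of the endoplasmic reticulum had 4 of 33 higher and 0 lower, among them Dnajb9 (30.8 and 155 CPM) and Hspa5, the chaperone BiP (297 and 557 CPM), around a median of -0.15 over all cells and of the opposite sign, 0.05, over like cells; Sdf2l1, also a target of the unfolded protein response, was at 156 and 61.1 CPM.

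Cholesterol and fatty acid synthesis genes had 11 of 35 higher and 0 lower, a median of 0.58 and 0.48 over like cells, where the list was above the median gene in 14 of 14 clusters. Insig1, a target and inhibitor of SREBP processing, was at 6.61 and 27.9 CPM in WT and KO leukaemia and 19.4 and 15.98 CPM in the c-Kit+ libraries, a ratio of 4.22 (3.87 to 4.62), and Plin2, the coat protein of lipid droplets, at 106 and 341 CPM in leukaemia. Insig2 was the lowest member at -0.69. For Insig1 the c-Kit+ levels lay between those of WT and KO leukaemia.

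Iron and redox genes, many of them targets of NRF2, had 9 of 36 higher and 1 lower, with a median of 0.46 (0.26 over like cells). Fth1, the ferritin heavy chain that stores iron, was at 1356 and 3442 CPM in WT and KO leukaemia and 1932 and 2021 CPM in the c-Kit+ libraries, a ratio of 2.54 (2.52 to 2.56). Slc40a1, the iron exporter ferroportin, was at 41.01 and 14.4 CPM in WT and KO leukaemia and 62.5 and 54.9 CPM in the c-Kit+ libraries and 2.84-fold (2.68 to 3.02) lower. The metallothionein gene Mt2 was at 5.88 and 17.7 CPM and Srxn1, sulfiredoxin, at 2.30 and 7.90 CPM. Erythroid markers were higher in KO as given above; the erythroid-like cluster was not among the 14 clusters of like cells behind the second median.

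Lysosome and autophagy genes had 7 of 58 higher and 0 lower, with a median of 0.24 that is -0.15 in plain CPM; beside Ctsl these included the galactosidase gene Gla (12.9 and 57.9 CPM) and the autophagy receptor gene Optn (19.2 and 79.5 CPM). Nucleotide and one-carbon enzymes had 0 of 40 past 2-fold, 32 of them below the median gene, and a median of -0.26, with Pfas of purine synthesis lowest at -0.98. Mitochondrial cycle and import genes had 3 of 43 higher and 0 lower, among them Dlst, of the oxoglutarate dehydrogenase complex (54.4 and 92.8 CPM), and Got1, an aspartate aminotransferase (18.3 and 29.6 CPM), and a median of 0.09 (-0.29 in plain CPM). Translation factors had 4 of 49 higher and 0 lower, led by Eif1 (927 and 2340 CPM) and the termination factor gene Etf1 (92.98 and 229 CPM), and a median of 0.16 (-0.22 in plain CPM). Proteasome genes had none of 42 past 2-fold and ran from -0.31 to 0.72 around a median of 0.08 (-0.30 in plain CPM).

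**Figure D5:**
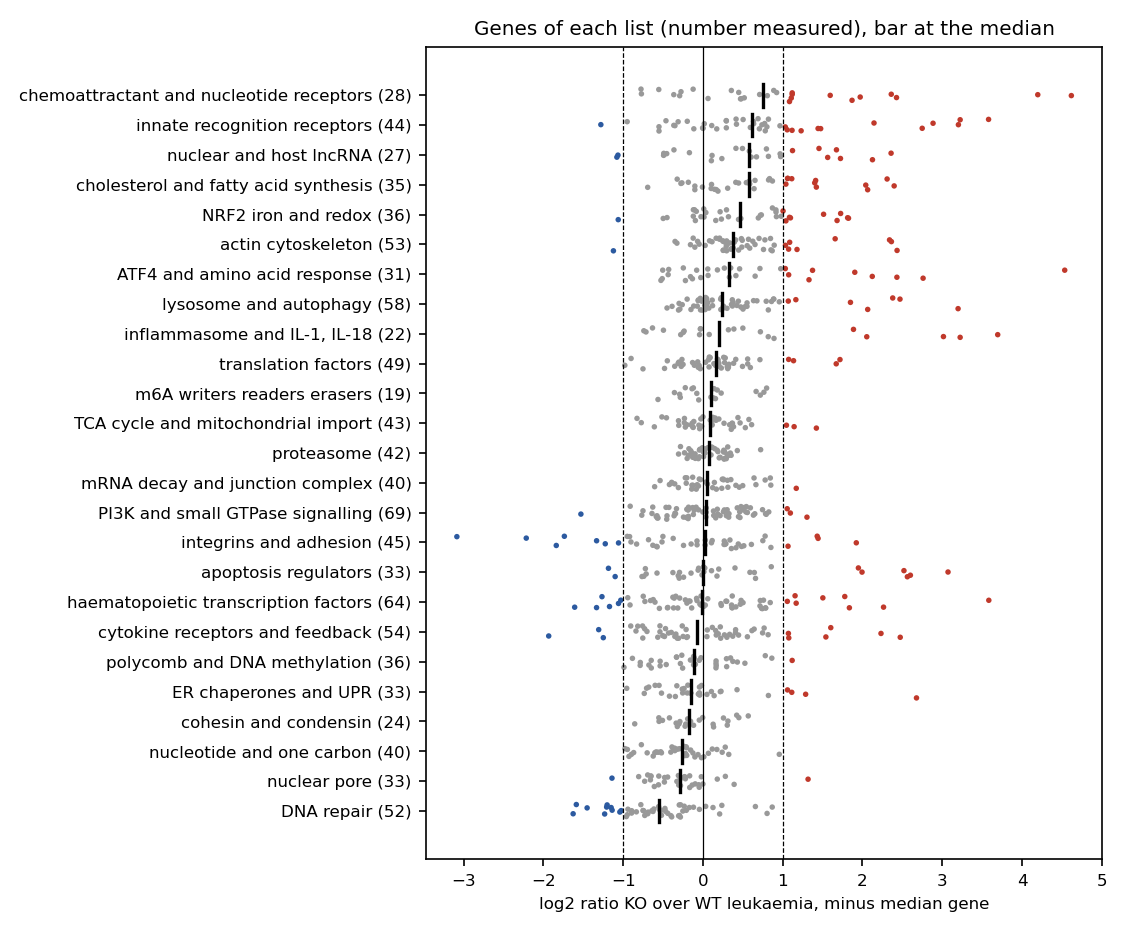
Difference between KO and WT leukaemia (x axis, log2 ratio minus the median gene) of each measured gene in 25 functional lists (rows, number measured in brackets), red for 2-fold or more higher, blue for 2-fold or more lower, grey otherwise, black bar at the list's median. DNA repair has the lowest median (-0.55) and chemoattractant receptors the highest (0.76), and 17 of 25 medians are above 0 here. In plain CPM every median lies 0.38 lower, which puts 12 of these 17 below 0, among them those of ATF4 (-0.0514), actin (-0.00359), lysosome (-0.15), inflammasome (-0.18), translation (-0.22) and proteasome genes (-0.30).

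Lists of receptors and sensors of myeloid cells had more higher than lower members, with medians that were smaller over like cells. Chemoattractant and nucleotide receptors had 11 of 28 higher and 0 lower, with a median of 0.76 over all cells and 0.32 over like cells. P2ry10, a lysophospholipid receptor, was at 2.34 and 12.8 CPM, whereas Cx3cr1, the fractalkine receptor of monocytes, was at 34.1 and 14.7 CPM. Innate recognition receptors had 12 of 44 higher and 1 lower, Nlrp1a (8.86 and 2.11 CPM), with medians of 0.61 and 0.07. Genes of inflammasomes and the IL-1 family had 5 of 22 higher and 0 lower, medians of 0.20 (-0.18 in plain CPM, so that its direction depends on the scaling) and 0.07, and Casp4, the caspase that senses LPS, at 22.8 and 146 CPM in WT and KO leukaemia and 51.9 and 39.8 CPM in the c-Kit+ libraries. The maturing neutrophil markers and clusters given above were also higher in KO, and the part of the stages in these 3 lists was not tested. The medians over like cells, in which each cluster has the same weight in both libraries, were the smaller ones.

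Adhesion genes had 4 of 45 higher and 7 lower, and their median of 0.03 over all cells was -0.13 over like cells, below the median gene in 12 of 14 clusters, and -0.36 in plain CPM. Adgre5, the leukocyte activation antigen CD97, was at 145 and 425 CPM in WT and KO leukaemia and 99.2 and 83.5 CPM in the c-Kit+ libraries, a ratio of 2.92 (2.86 to 2.98), and Cd9, a tetraspanin, at 288 and 598 CPM. Pcdh7, Adgrl4 and Pecam1 were the lowest. Cytokine receptors and their feedback genes had 6 of 54 higher and 3 lower, with a median of -0.07. The kinase genes Pim1 (40.9 and 177 CPM) and Pim3 (6.80 and 27.1 CPM) and the JAK inhibitor gene Socs1 (5.85 and 14.95 CPM) were highest, all targets of STAT signalling, while Bmpr2, a BMP receptor (19.9 and 5.47 CPM), and Socs5 (17.6 and 4.997 CPM) were lower.

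Signalling and survival genes went in both directions. PI3K and small GTPase signalling genes had 3 of 69 higher, among them Rasa2 (144 and 274 CPM) and Rhoh (30.4 and 50.5 CPM), and only Pik3cd lower, with a median of 0.04 that is -0.10 over like cells and -0.34 in plain CPM; Pik3ca, which codes for p110 alpha, differed by -0.77. Actin, tubulin and lamin genes had 8 of 53 higher and 1 lower, the actin regulator gene Evl (34.5 and 11.5 CPM), with a median of 0.38 that is -0.00359 in plain CPM. The lamin genes Lmnb1 and Lmna were at 193 and 802 CPM and 11.3 and 46.6 CPM. Regulators of apoptosis and of p53 had 6 of 33 higher and 2 lower around a median of 0.01, which is -0.01 over like cells and -0.38 in plain CPM. The pro-apoptotic BH3 genes Bbc3, which codes for PUMA, and Pmaip1, which codes for NOXA, were at 11.9 and 58.9 CPM in WT and KO leukaemia and 11.8 and 10.9 CPM in the c-Kit+ libraries and at 29.1 and 135 CPM in WT and KO leukaemia and 9.14 and 9.43 CPM in the c-Kit+ libraries. Bmf, another pro-apoptotic BH3 gene, was among the 3 lowest members, at 7.56 and 2.86 CPM in WT and KO leukaemia and a difference of -0.76. Mcl1 was higher with Bbc3 and Pmaip1, whereas Bcl2, a survival gene of the same family, was at 74.8 and 24.6 CPM in WT and KO leukaemia and 53.9 and 59.6 CPM in the c-Kit+ libraries and 3.04-fold (2.91 to 3.19) lower, with a difference of -1.18 over all cells and -0.64 over like cells, above the median gene in 4 of 14 clusters. Genes that promote and genes that block apoptosis were thus both among the higher ones.

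Gene structure and position, which played no part in choosing the genes, were compared in 5 equal bins of the genes found in GENCODE M21. From the bin with the shortest to that with the longest genomic span the median difference went from 0.13 to -0.19, the share called lower from 1.54% to 7.26% and the share called higher from 11.2% to 6.44%. In the c-Kit+ pair the median went from 0.06 to -0.06 over the same bins. Genes with the fewest exons, 1 to 5, were called higher in 14.3% of cases and those with the most, 17 to 146, in 4.69%. By level, 6.39% of the lowest bin and 1.08% of the highest bin were called lower. The separate parts of span, exon number and level in these values were not tested.

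Chromosome medians lay close together, from -0.09 on chromosome 14 to 0.09 on chromosome 10. In overlapping windows of 25 neighbouring measured genes the highest median was 0.63, on chromosome 2 from 167421712 to 173218923 (Slc9a8 to Zbp1), where 20 of 25 genes were above the median gene. The lowest was -0.46, on chromosome 6 from 125191801 to 128984707 (Mrpl51 to Gm15987), with 18 of 25 below it. The same windows, chosen as the extremes in leukaemia, had medians of -0.01 and -0.04 in the c-Kit+ pair. The SD over the 1849 windows was 0.16 in leukaemia and 0.04 in the c-Kit+ pair.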

How the data were processed

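UMI counts per gene and cell were deposited by the authors for 4 libraries (Cell Ranger 7.1.0 and mm10, per the submitters' processing notes; the annotation and the treatment of multicopy and antisense genes are not given in the sources used here). Members and gene lists were chosen with earlier results of these data known. Counts were summed over kept cells (Python 3.11.15, numpy 2.4.6). Doublets called by Scrublet in scanpy 1.11.5, 3.33% to 3.65% of cells per library, stayed in and were left out as an alternative. Ratios have exact conditional binomial intervals, shares exact Clopper-Pearson intervals. Lists hold symbols with 1 gene ID. Leading genes were the 15 highest and lowest at 50 to 500 CPM and the 8 highest and lowest above and below that band, with an equal sign and at least 0.5 over like cells, and up to 3 highest and 3 lowest per list; immediate early, mitochondrially encoded, sex-linked marker, haemoglobin, immunoglobulin and receptor-segment genes and numbered models were left out. WT cells were clustered on 2000 variable genes, 30 principal components and at Leiden resolution 0.6 (scikit-learn 1.9.0, igraph 0.11.9). A cluster name needed at least 3 raised markers and 50% of its set. It also needed that no other set had more members among the cluster's 10 leading genes. Like cells are the nearest WT clusters. The calculation was run on counts simulated from the WT leukaemia levels with set fold changes. That run held no differences in cell stages or handling and does not address them. Alternatives covered cell filters, doublets, scaling, pseudocount, level limit, fold, cell weights, thinning and lineages. Some genes that met these rules are not reported here.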

Additional observations from a re-analysis of the deposited data

Results flagged for a closer look

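Acod1, the itaconate-producing enzyme of activated myeloid cells, differed in opposite directions in the 2 pairs of libraries. Its ratio of KO over WT was 22.3 in leukaemia (2.06 and 46.03 CPM), while it was lower in the KO than in the WT library of c-Kit+ cells (30.6 and 14.7 CPM). With 1 library per group the difference between the pairs was not tested.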

How the results depend on the processing

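All 114 genes chosen by the naming rule and past 2-fold kept their direction in the 12 alternatives run for them, and 82 stayed past 2-fold in all 12. Like cells were among these alternatives, and there the naming rule had fixed the direction of genes taken from the level bands. The 839 higher and 361 lower genes became 484 and 1244 in plain CPM, 1261 and 546 with a level limit of 1 CPM, 444 and 142 with a limit of 25 CPM (fewer genes tested) and 1669 and 1386 at 1.5-fold; with a pseudocount of 5 CPM 160 were lower. The 9 c-Kit+ genes past 2-fold became 3 with that pseudocount, 19 at 1 CPM, 1 at 25 CPM, 43 at 1.5-fold and 22 with cells of other lineages gated out. In plain CPM 12 of the 17 functional list medians above 0 fell below it, among them the ATF4 median at -0.0514 and the actin median at -0.00359; 5 of 25 list medians had the other sign over like cells, and from 0 to 5 under the remaining settings. The range of chromosome medians, 0.18 over all cells, was 0.12 over like cells. The causes were not tested where the setting's construction does not show them. No paired analysis was possible because each group has 1 library. Counts limit genes near 5 CPM most.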
